A study of Mus musculus with 2 samples.

Results

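Potassium, sodium and chloride channel genes were taken as every gene of the count table whose mouse symbol begins with Kcn, then letters and a digit, or reads Scn, a number and a or b, or begins with Clcn and a digit or k, and which had at least 1 count in the pair of libraries. Of 121 genes with such a symbol, 83 met this rule and 38 had 0 counts in both libraries. All 83 were protein-coding genes except Kcnq1ot1, a noncoding antisense RNA whose symbol fits the pattern but which encodes no channel. The other 82 encode channels, channel subunits or, for Clcn3 to Clcn7, chloride-proton exchangers of the same family. For brevity all members are called channel genes below. A summed count of at least 20, the minimum for a ratio, was reached by 46 of the 83, as against 12662 of the 17286 genes in the table with at least 1 count.

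RNA was sequenced from gastrocnemius, a calf muscle, of C57BL/6 mice aged 8 weeks, in 1 library of genotype CIPC-flox/flox (both Cipc alleles flanked by loxP sites, flox/flox below) and 1 library labelled CIPC-scko (scKO below), read from the series title as deletion of Cipc in satellite cells, the stem cells of muscle. Neither the Cre driver nor any pooling of animals is named in the labels; the title also names mdx, the dystrophin-deficient strain, while the labels of these libraries do not. Cipc encodes a repressor of CLOCK and BMAL1, the transcription factors that drive the circadian clock, and it had 658 and 111 counts, where, as in every pair of values below, flox/flox comes first and scKO second. Total counts were 14727219 and 13842100, and all 14 listed markers of skeletal muscle fibres were detected, together at 155526 and 149693 CPM (counts scaled to library size). With 1 library per genotype there is no replicate check: every difference below is between these libraries and not between the genotypes. Ratios are scKO over flox/flox after scaling of library sizes, on the log2 scale, and each bracket is a 95% interval that covers counting error only. In whole muscle, fewer cells of a type and less RNA per cell cannot be told apart.

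A skeletal muscle fibre contracts when an action potential runs along its membrane. Voltage-gated sodium channels carry the upstroke, voltage-gated potassium channels help to end it, and a large resting conductance to chloride and to inwardly rectified potassium returns the membrane to rest and keeps it there. Inherited defects in these channels cause myotonia and periodic paralysis. Other chloride transporters of the same family sit in endosomes and lysosomes, where they exchange chloride for protons.

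Of the 46 channel genes tested, 1 was at least 2-fold higher in scKO with an interval that excludes no change, the sodium channel subunit gene Scn3b. By the same rule 4 were at least 2-fold lower: Kcnf1, Kcnu1, Kcnn3 and Kcna2, all potassium channel genes. These are 2.17% and 8.70% of the members tested, beside 1.49% and 1.91% of all 12662 genes tested. Counts of 1 and 4 are small, and 3 of the 5 genes (Scn3b, Kcnu1 and Kcna2) had under 100 counts in all, a range in which 10.6% of all genes were past the same rule. Just inside the 2-fold line lay Kcna2, at 2.21-fold lower, and just outside it Scn3a, at 1.98-fold higher. Kcnk2 and Kcnt2 were past 2-fold with intervals that include no change.

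Smaller differences were more frequent. An interval lay above 0 for 13 of the 46 members (28.3%) and below 0 for 9 (19.6%), against 12.8% and 12.3% of all genes tested. Intervals narrow as counts grow, so the same shares were taken at a summed count of at least 100. There 12 of 29 members (41.4%) lay above 0 and 7 (24.1%) below, against 14.6% and 13.4% of 9797 genes. This cut does not match the counts: 13 of the 29 members had at least 1000 counts, against 2861 of the 9797 genes. Intervals of the members can therefore still be narrower than those of the background. No test was made of these shares. The median log2 ratio of the 46 members was 0.081, beside 0.0021 over all genes tested, and 24 members were on the positive side and 22 on the negative.

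**Figure D1:**
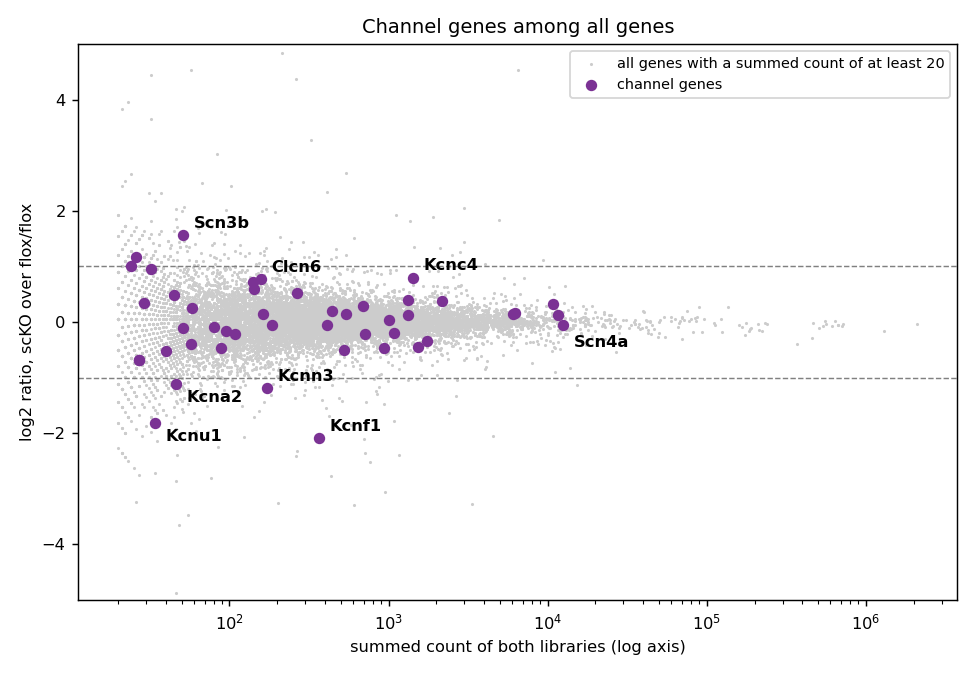
Log2 ratio of scKO over flox/flox against the summed count of both libraries (log axis), for all genes with a summed count of at least 20 (grey) and the 46 channel genes (purple); dashed lines mark a 2-fold difference, and 12 genes beyond 5 on the log2 scale lie outside the plot. Kcnf1 at −2.09 lies below most grey points of like count, and Scn4a, the best counted channel gene, sits at −0.051.

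Together the 83 genes took 0.220% and 0.242% of all counts. A few well counted genes, among them Scn4a, Scn4b, Clcn1 and Kcna7, made up most of this. Levels of different genes were compared per length, as the deposited FPKM (counts scaled to gene length and library size). Of the genes described here, Scn4b was highest with an FPKM of 67.7 and 87.0, followed by Scn4a with 62.6 and 62.1 and Kcna7 with 56.9 and 64.7. The order of Scn4a and Kcna7 differs between the libraries, so these neighbours are not separated. Next came Kcnj11 at 33.9 and 30.2 and Clcn1 at 25.9 and 29.8. The order depends on the length used: with the merged exons of the GENCODE M21 annotation, Kcna7 moved above Scn4b and Scn4a, and Kcnj11 moved below Clcn1, Kcnj12 and Kcng4 in both libraries.

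**Figure D2:**
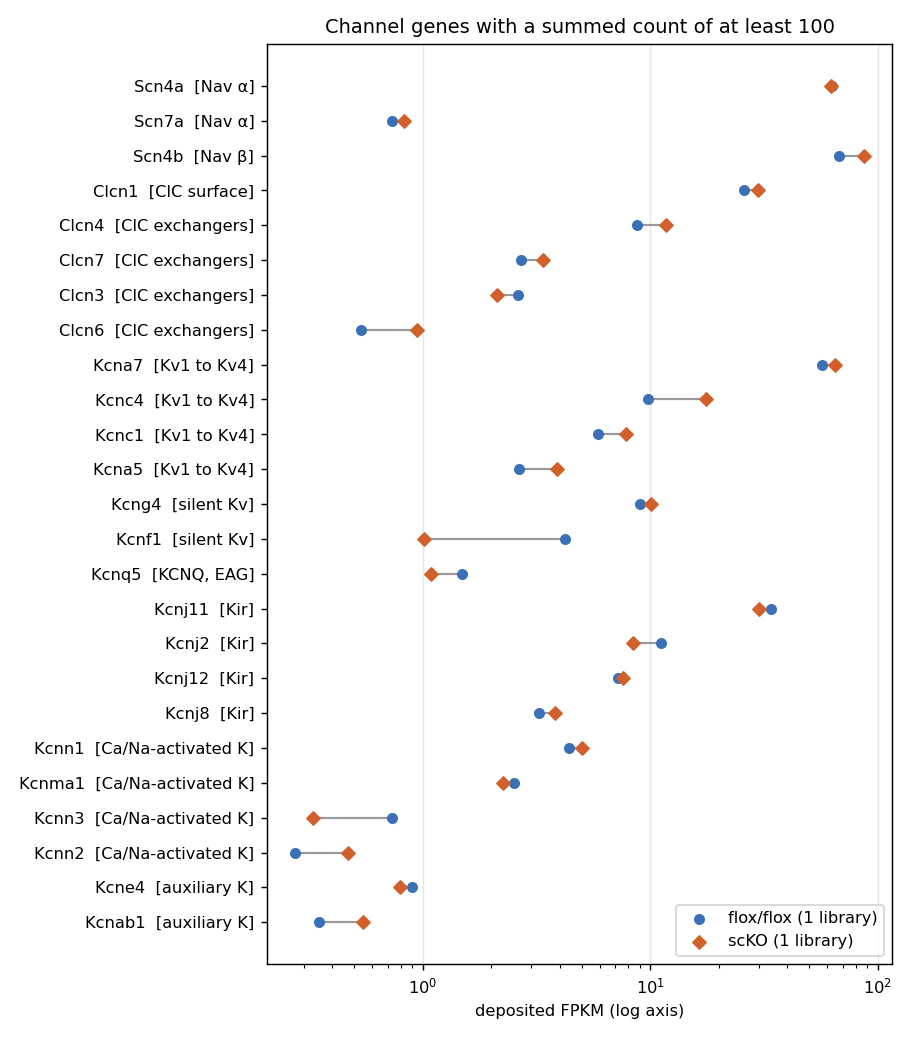
Deposited FPKM (log axis) of 25 of the 29 channel genes with a summed count of at least 100, grouped by role, in the flox/flox library (blue circles) and the scKO library (orange diamonds). Scn4b, at 67.7 and 87.0, has the highest point, and the longest line is that of Kcnf1, from 4.22 to 1.01.

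The main sodium channel of adult muscle was close to equal in both libraries, while its partner subunit gene Scn4b was slightly higher in scKO. Scn4a, which encodes the pore of the muscle sodium channel (chromosome 11, 106318592 to 106353288, GRCm38), had 6492 and 6050 counts, a log2 ratio of −0.051 (−0.10 to 0.00017). Scn4b, the β4 subunit, had 4926 and 5948 counts, a log2 ratio of 0.32 (0.27 to 0.38). The number of Scn4b counts for each Scn4a count was 0.759 and 0.983. Scn3b, the β3 subunit gene best known from nerve and heart (chromosome 9, 40269217 to 40291618), had 13 and 38 counts, 3.03-fold higher in scKO, at 1.56 (0.66 to 2.63). It is a minor transcript in both, at an FPKM of 0.0574 and 0.178. Scn2b, with 27 and 31 counts, stood at 0.25 (−0.54 to 1.05).

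The other sodium channel pore genes described here had intervals that include 0 or too few counts for a ratio. Scn7a, a sodium sensor found in Schwann cells and other glia, had 79 and 84 counts, at 0.14 (−0.32 to 0.60). The brain channels Scn3a, with 11 and 21 counts, and Scn2a, with 19 and 26, were low. Scn1a (1 and 0 counts) and Scn8a (0 and 2) were nearly absent from the counts, and Scn9a, Scn10a and Scn11a, the channels of sensory neurons, had 0 in both.

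**Figure D3:**
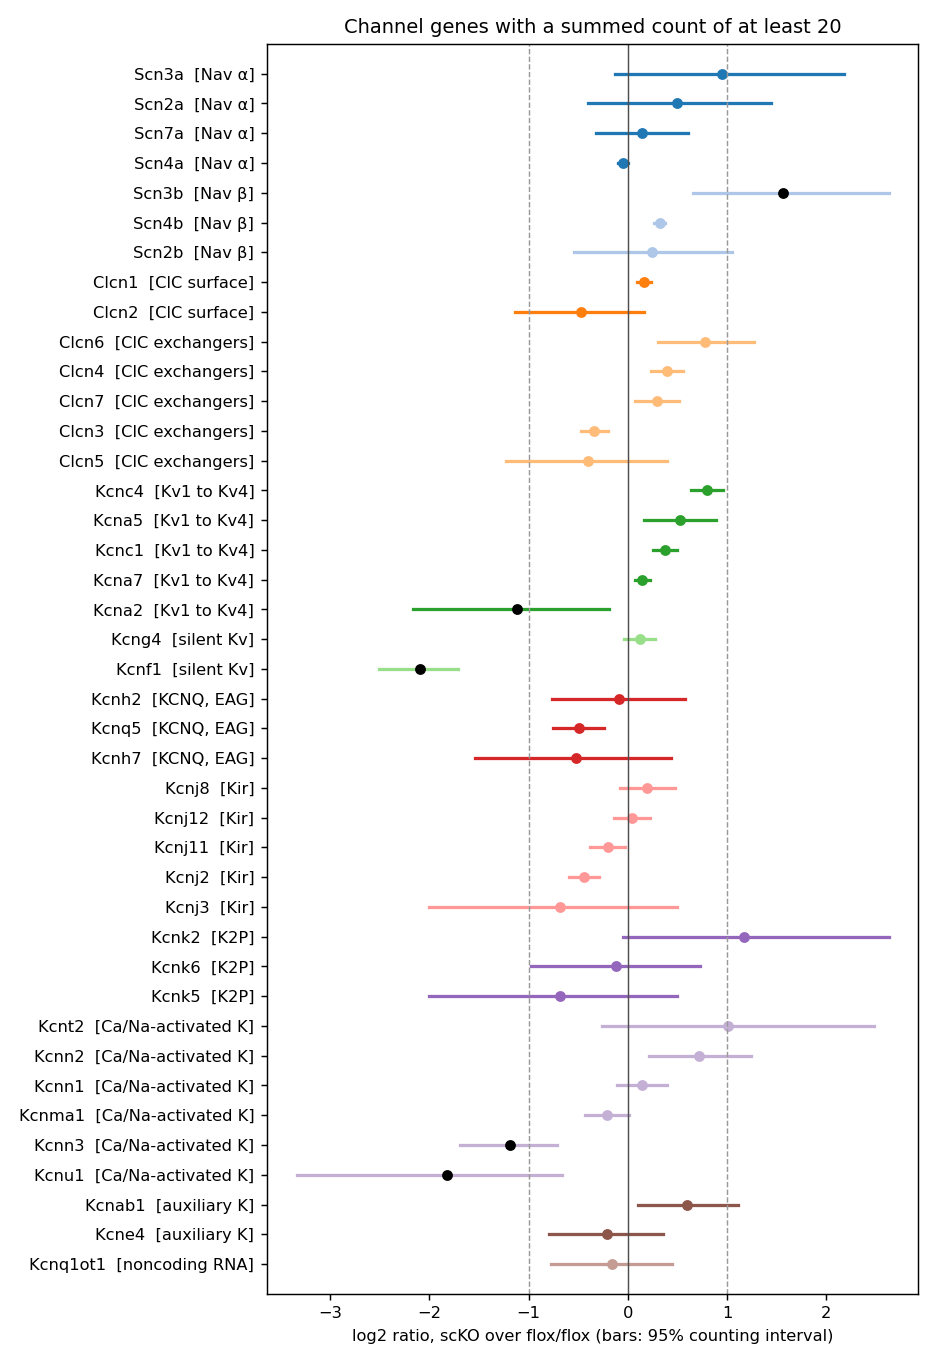
Log2 ratio of scKO over flox/flox (points) with 95% counting intervals (bars) for 41 of the 46 channel genes with a summed count of at least 20, ordered by the role in brackets (Nav sodium, ClC chloride, Kv voltage-gated potassium, Kir inward rectifier and K2P tandem-pore channels); black points are at least 2-fold apart with an interval that excludes 0, and dashed lines mark 2-fold. Black points are Scn3b on the right and Kcna2, Kcnf1, Kcnn3 and Kcnu1 on the left; Kcnq5 and Kcnh7 lie close together, at −0.50 and −0.52.

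The chloride channel that sets the resting conductance of muscle was marginally higher in scKO. Clcn1, in which loss of function causes myotonia (chromosome 6, 42286685 to 42315756), had 3015 and 3262 counts, a log2 ratio of 0.16 (0.093 to 0.24). Clcn2, a channel opened by hyperpolarization in many tissues, had 52 and 36 counts, at −0.47 (−1.13 to 0.16).

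The intracellular chloride-proton exchangers separated by gene. Clcn6, of late endosomes, had 59 and 98 counts and was 1.72-fold higher in scKO, a log2 ratio of 0.78 (0.30 to 1.27). Clcn4, of endosomes, had 586 and 744 counts, at 0.40 (0.24 to 0.55), and 11.5% of its exon bases are shared with an antisense gene, Gm45631, without counts here. Clcn7, the lysosomal exchanger, had 316 and 373 counts, at 0.29 (0.070 to 0.51). Its obligate partner Ostm1, which is not a member by name, stood on the same side with 385 and 437 counts, at 0.23 (0.033 to 0.44). Clcn3, also endosomal and the best counted of the group, went the other way with 984 and 752 counts, at −0.34 (−0.48 to −0.20), and Clcn5 had 33 and 24 counts, at −0.40 (−1.23 to 0.39). The summed counts of all 5 exchangers were 1978 and 1991, with a log2 ratio of 0.061 (−0.030 to 0.15).

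The 3 exchangers with intervals above 0 also hold a short sequence near a start site. Whether it bears on their ratios was not tested. Promoter windows of 250 bases before to 50 bases after the start, from RefSeq on GRCm38.p6, were searched on both strands for the letters CACGTG, the E-box that CLOCK and BMAL1 bind and that other factors of the same class, including the lysosomal regulator TFEB, bind too. Clcn4, Clcn6 and Clcn7 each hold it, and the windows of Clcn3 and Clcn5 do not. The windows shown were picked with these ratios in view. The 3 windows with it are printed below because they go with the higher exchangers, Kcnj2 because it holds the same letters and was lower, and Kcnf1 because it holds none and had the lowest ratio. All are written 5′ to 3′ on the strand of the gene, with each CACGTG in capitals.
Clcn4, chr7:7299508-7299807, minus strand: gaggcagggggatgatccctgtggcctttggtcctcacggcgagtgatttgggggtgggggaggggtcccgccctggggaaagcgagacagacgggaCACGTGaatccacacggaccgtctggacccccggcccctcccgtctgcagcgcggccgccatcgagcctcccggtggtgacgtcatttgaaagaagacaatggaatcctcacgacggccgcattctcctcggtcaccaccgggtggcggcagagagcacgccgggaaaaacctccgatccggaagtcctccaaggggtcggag
Clcn6, chr4:148038764-148039063, minus strand: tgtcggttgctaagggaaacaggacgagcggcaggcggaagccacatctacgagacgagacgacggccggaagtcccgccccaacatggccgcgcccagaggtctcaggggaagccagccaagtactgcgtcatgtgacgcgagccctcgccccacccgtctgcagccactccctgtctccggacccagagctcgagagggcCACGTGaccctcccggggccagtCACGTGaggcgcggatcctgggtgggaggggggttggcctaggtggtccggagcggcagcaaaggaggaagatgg
Clcn7, chr17:25133141-25133440, plus strand: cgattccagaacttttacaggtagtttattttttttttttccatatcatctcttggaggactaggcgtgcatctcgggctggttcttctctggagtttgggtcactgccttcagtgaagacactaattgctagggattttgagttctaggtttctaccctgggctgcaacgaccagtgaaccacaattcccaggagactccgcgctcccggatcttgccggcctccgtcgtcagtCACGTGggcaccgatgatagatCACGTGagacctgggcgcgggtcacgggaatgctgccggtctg
Kcnj2, chr11:111065914-111066213, plus strand: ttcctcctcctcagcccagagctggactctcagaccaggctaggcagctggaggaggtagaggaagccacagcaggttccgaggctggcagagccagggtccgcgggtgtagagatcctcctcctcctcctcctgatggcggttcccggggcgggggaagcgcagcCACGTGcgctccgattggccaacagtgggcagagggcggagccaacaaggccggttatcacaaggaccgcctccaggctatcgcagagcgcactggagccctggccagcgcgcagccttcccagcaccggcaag
Kcnf1, chr12:17176839-17177138, minus strand: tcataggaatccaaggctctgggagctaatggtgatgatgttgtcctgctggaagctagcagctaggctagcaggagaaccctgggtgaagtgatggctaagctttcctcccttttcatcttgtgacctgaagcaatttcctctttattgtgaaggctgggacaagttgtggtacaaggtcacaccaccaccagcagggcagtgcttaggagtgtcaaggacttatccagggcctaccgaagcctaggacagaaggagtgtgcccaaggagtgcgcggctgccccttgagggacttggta

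In the Clcn6 window the E-boxes begin 48 and 25 bases upstream of the start, and in the Clcn7 window 15 bases upstream and 7 bases downstream. The Clcn4 match begins 153 bases upstream, in 1 of its 2 windows, and that of Kcnj2 84 bases upstream. Clcn7 has a further window, at another start, without the letters. Over all 32851 windows in the table, 7.15% hold CACGTG, as do 11.5% of the 78 windows of members and 17.0% of the 47 windows of tested members. The 32851 windows were not limited by count, so they are not a like background for the members. The 17.0% is 8 windows. Windows were found for 35 of the 46 tested members and 7 of those genes hold it: Clcn4, Clcn6, Clcn7 and Kcnab1, with intervals above 0, Kcnj2, with an interval below 0, and Kcne4 and Kcnk5, with intervals that include 0. Of the other 28 genes, 6 had intervals above 0 and 5 below. Clcn4, Clcn6 and Clcn7 are the exchangers singled out above by their ratios, so this tally is not separate from that choice. The GC box GGGCGG, the core of the site of Sp factors, was searched because Sp1 itself had 31 and 293 counts. It lies in 42.3% of the 78 windows of members, 40.4% of the 47 and 35.7% of all windows, again not limited by count. It never overlapped a CACGTG in the windows printed. These matches describe the letters alone: no binding was measured, and which start each muscle transcript uses is not in the counts.

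Among voltage-gated potassium channel pore genes of the Shaker and Shaw families, the best counted were higher in scKO. Kcna7, a Shaker-type channel of skeletal muscle and heart (chromosome 7, 45405653 to 45409763), had 2926 and 3127 counts, a log2 ratio of 0.15 (0.074 to 0.22). Kcnc4, a Shaw-type channel that opens and inactivates fast (chromosome 3, 107438303 to 107459552), had 529 and 888 counts and was 1.74-fold higher in scKO. Its log2 ratio of 0.80 (0.64 to 0.96) was exceeded by 112 of the 9797 genes with at least 100 counts, and its FPKM went from 9.80 to 17.5. Kcnc1, another fast channel of this family, was higher as well, with 959 and 1199 counts, at 0.37 (0.25 to 0.50). Kcna5, a delayed rectifier of heart and blood vessels, had 111 and 154 counts, at 0.52 (0.16 to 0.89). Kcna2, an axonal channel gene (chromosome 3, 107101146 to 107115005), was lower on 32 and 14 counts, at −1.11 (−2.16 to −0.19).

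Kcnf1 had the lowest ratio of all tested members. It encodes an electrically silent subunit, which forms no working channel alone and changes the current of other pores when it joins them. The gene has a single exon (ENSMUSG00000051726, chromosome 12, 17172100 to 17176888, minus strand). The counts were 298 and 67, 4.29-fold lower in scKO, a log2 ratio of −2.09 (−2.51 to −1.71). Of the 9797 genes with at least 100 counts, 13 had a lower ratio. The nearest tested genes were all nearer to 0: Pdia6, 89657 bp upstream, stood at −0.0013 (−0.19 to 0.19), Nol10 beyond it at −0.14 (−0.52 to 0.24), and downstream Pqlc3, on 14 and 18 counts, at 0.40 (−0.68 to 1.53) and Rock2 at −0.19 (−0.28 to −0.10). No exon of another annotated gene overlaps Kcnf1. An interval that includes 0 was found for Kcng4, the other silent subunit gene tested, with 651 and 683 counts, at 0.12 (−0.037 to 0.28). The silent genes Kcng1 (3 and 0 counts), Kcng2 (3 and 0), Kcns1 (3 and 0) and Kcns2 (2 and 0) were counted in flox/flox alone, on too few counts to compare.

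Of the KCNQ and EAG genes described here, 1 had an interval below 0. Kcnq5, a slow non-inactivating channel of brain and muscle (chromosome 1, 21398403 to 21961942), had 313 and 214 counts, at −0.50 (−0.76 to −0.24). Kcnh7, a relative of Kcnh2 found mainly in nerve, with 24 and 16 counts, stood at −0.52 (−1.54 to 0.44). Of its exon bases, 4.57% are shared with Gca on the opposite strand, which had 63 and 46 counts, at −0.40. The strand setting of the counting is not known, so reads of Gca among the Kcnh7 counts cannot be told apart. Kcnh2, the delayed rectifier of the heart's repolarization, had 42 and 38 counts, at −0.091 (−0.77 to 0.57).

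Inward rectifiers with a summed count of at least 20 were lower or had intervals that include 0. Some channels of this class hold the fibre near its resting potential. Kcnj2, a strong rectifier mutated in a form of periodic paralysis (chromosome 11, 111066164 to 111076821), had 891 and 632 counts, a log2 ratio of −0.44 (−0.59 to −0.30). Kcnj12, a rectifier that assembles with it, had 503 and 500 counts, at 0.043 (−0.14 to 0.22). The deposited FPKM of Kcnj12 was 0.647 and 0.907 times that of Kcnj2. The order depends on the length used. With merged exons the FPKM was 12.4 and 13.1 for Kcnj12 against 11.1 and 8.39 for Kcnj2. Kcnj11, the pore of the ATP-sensitive channel of muscle fibres, had 585 and 490 counts, at −0.20 (−0.38 to −0.029). That interval reached 0 when libraries were scaled by total counts, so this difference is not firm even against counting error. Kcnj8, the ATP-sensitive pore of vascular muscle, had 209 and 231 counts, at 0.20 (−0.081 to 0.47). Abcc9, the sulfonylurea receptor that joins both pores, had 3711 and 3854 counts, at 0.11 (0.040 to 0.17). Kcnj3, a G protein-activated rectifier, had 17 and 10 counts, at −0.69 with an interval that includes 0, and 31.1% of its exon bases are shared with an opposite-strand gene, Gm26794 (1 and 2 counts).

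Calcium-activated potassium channel genes went in different directions. Kcnn3, a small-conductance channel that appears in immature and denervated fibres (chromosome 3, 89520164 to 89675132), had 121 and 51 counts, 2.29-fold lower in scKO, a log2 ratio of −1.19 (−1.70 to −0.71). Kcnn2, of the same family, had 54 and 86 counts, at 0.72 (0.21 to 1.24). Kcnn1, the best counted small-conductance gene, had 263 and 280 counts, at 0.14 (−0.11 to 0.39). The intervals of Kcnn2 and Kcnn3 therefore lie on opposite sides of 0 and that of Kcnn1 includes it. Kcnma1, the large-conductance channel, had 387 and 323 counts, at −0.21 (−0.43 to 0.0072). Kcnu1, a relative of Kcnma1 known as a channel of sperm (chromosome 8, 25849623 to 25937939), had 27 and 7 counts, 3.72-fold lower, at −1.82 (−3.34 to −0.66). Ash2l, which begins 1929 bp from Kcnu1, had 334 and 279 counts, at −0.21 (−0.44 to 0.025). The sodium-activated channel Kcnt2 had 8 and 16 counts, at 1.01 (−0.26 to 2.48).

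Tandem-pore leak channels of the Kcnk family were scarce in both libraries, with 68 and 60 counts over 6 detected genes. Kcnk2, a stretch-sensitive channel, had 8 and 18 counts, at 1.17 (−0.052 to 2.63). Kcnk5, an acid-sensitive channel, had 17 and 10, and Kcnk6 had 27 and 24. No interval of a tested Kcnk gene excluded 0. The auxiliary subunits were also scarce. Kcnab1, a cytoplasmic β subunit of Shaker-type channels, had 58 and 85 counts, at 0.60 (0.10 to 1.11), and Kcne4, a small membrane subunit that inhibits several channels, had 59 and 49, at −0.21 (−0.79 to 0.35). Kcne3, which is mutated in some reports of periodic paralysis and pairs with Kcnc4, had 1 and 6 counts. Kcnq1ot1, the imprinted antisense RNA of the Kcnq1 locus, had 51 and 44 counts, at −0.16 (−0.78 to 0.45), while Kcnq1 itself had 7 and 4.

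The other 37 members had between 1 and 19 counts in all and were given no ratio. Of these, 19 had more counts in flox/flox and 18 more in scKO, and 18 had all their counts in 1 library. The same tallies were not taken over the 4624 genes in this range. Whether those of the members differ from them cannot be told. The largest such gap was Kcnj15, with 0 and 9 counts; Kcnn4 had 5 and 0. Kcnip3, a calcium-binding partner of Shal-type pores, had 2 and 11 counts, and Kcnk13 had 8 and 1. Kcnj13 had 0 and 4 counts, but 49.1% of its exon bases are shared with Gigyf2 on the opposite strand, which had 536 and 511, and the strand setting of the counting is not given in the sources used here. For the 38 genes at 0 in both libraries, 0 counts allow a level of up to 0.204 and 0.217 CPM, taken as 3 counts. They include the Shal channel Kcnd3, the cardiac subunit Kcne1 and the neuronal rectifier Kcnj6.

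Lists of genes that work beside these channels were described by the same counts and medians. Over all genes tested, 12.8% had intervals above 0 and 12.3% below. The lists were not matched to those genes by count, so their tallies are not read as shifts. Of 10 tested genes of the sodium-potassium pump and its regulators, 2 had intervals above 0 and 2 below, with a median log2 ratio of 0.0023. Fxyd6, of the pump's regulator family, had 569 and 616 counts, at 0.17 (−0.0011 to 0.33), and the β subunit relative Atp1b4 had 106 and 76, at −0.43 (−0.87 to 0.0098). Among 11 cation-chloride cotransporters and their kinases the median was −0.052, with Wnk2 above 0 at 0.28 (0.19 to 0.37), Wnk1 below 0 at −0.15 (−0.21 to −0.088), and the cotransporter Slc12a7 at −0.11 (−0.50 to 0.29). Among 19 other chloride and anion channel genes the median was 0.027, with 2 intervals above 0 and 2 below. Ano6, a lipid scramblase and ion channel, was lower at −0.35 (−0.48 to −0.21), Lrrc8c, of the volume-regulated anion channel, stood at 0.29 (−0.032 to 0.61), and Lrrc8d, of the same channel, had 50 and 12 counts, at −1.96 (−3.05 to −1.08). Only 2 leak and acid-sensing channel genes could be tested, Hcn2 and Asic3, and both intervals include 0.

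Of these lists, channel partners and anchors held the largest difference on high counts. Nedd4, a ubiquitin ligase whose family removes sodium and potassium channels from the membrane, had 3047 and 6352 counts, at 1.11 (1.05 to 1.17). Its relative Nedd4l, the member best known for that role, had 369 and 292, at −0.29 (−0.51 to −0.061). Sntb1, a syntrophin that links channels to the dystrophin complex, had 59 and 111 counts, at 0.96 (0.49 to 1.44). Of 17 tested genes in this list 6 had intervals above 0 and 3 below, and the median was 0.052. The shares over all genes tested were 12.8% and 12.3%, again not matched by count. Fxyd7 of the pump list (8 and 23 counts) and Lrrc55, a large-conductance channel partner (4 and 16), were also past 2-fold; they, Lrrc8d, Ostm1, Abcc9 and Sp1 were singled out after their values were seen.

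**Figure D4:**
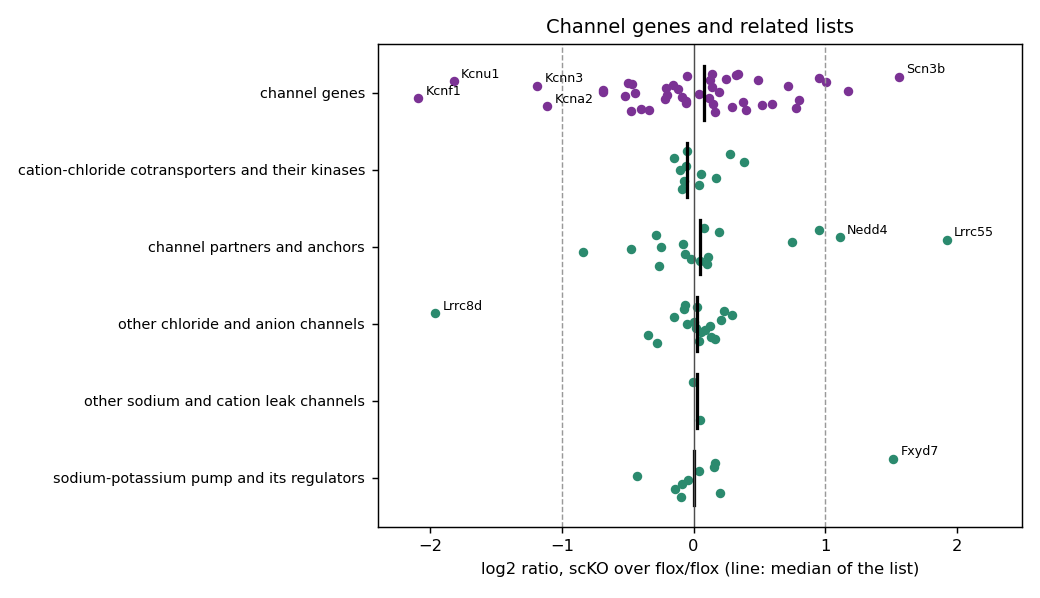
Log2 ratio of scKO over flox/flox for the 46 channel genes (purple) and 5 lists of related genes (green), each point 1 gene with a summed count of at least 20 and each black line the median of its list. The medians run from −0.052 to 0.081, and the channel genes reach from −2.09 to 1.56.

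Summed CPM of marker genes for 7 cell types had scKO over flox/flox ratios between 0.788 for erythroid cells and 1.16 for endothelium. Unlike the other ratios, these were scaled by total counts alone and are not on the log2 scale. The part of these cells in any of the differences was not tested. Tallies of intervals below stand beside 12.8% above 0 and 12.3% below over all genes tested. Intervals narrow as counts grow, and the marker lists were not matched to those genes by count. The nerve and Schwann cell list, which bears on Kcna2, Scn7a and the brain sodium channels, summed to 105.5 and 101 CPM; of its 15 genes 9 were tested, 2 had intervals below 0 (Sox10, with 27 and 9 counts, and Pmp22, with 534 and 441) and none above, the neurofilament gene Nefh had 12 and 3 counts, and Nefl, another neurofilament gene, was at 0 in both. Smooth muscle and pericyte markers, the cells of Kcnj8, summed to 3026 and 3165 CPM, with 2 intervals above 0 and 3 below among 12. Most of that sum is Des, with 36135 and 35736 counts and an interval above 0, which fibres make too. Tagln, with 277 and 321 counts, had the other interval above 0. Those below were of Cnn1 (18 and 4 counts), Higd1b (30 and 15) and Mcam (378 and 269). Endothelial markers summed to 340 and 394 CPM, with 3 above and none below among 12. Fibroblast markers summed to 524.5 and 438 CPM, with 4 of 7 intervals below 0, and erythroid markers to 144 and 114 CPM, with all 5 tested below. Leukocyte markers summed to 82.2 and 75.4 CPM, with 2 of 11 below and Cd3e at 0 in both. Of the 14 muscle fibre markers, 10 had intervals below 0 and 3 above, with log2 ratios between −0.28 and 0.27.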

How the data were processed

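The members and gene lists were chosen with earlier results of these data known. Each gene's raw count in each of the 2 libraries came from the deposited table; the submitters' processing notes list GRCm38 as the build and name HISAT2 2.0.4, StringTie 1.3.0 and CASAVA. The annotation release, counting options and strand setting are not given in the sources used here. Deposited FPKM values, per the file headers 1 column per library, were used for levels per length; the length implied by FPKM and count agreed between libraries to within 0.0198% and, for 28 of 46 tested members, was within 1% of the total of all distinct exons in GENCODE M21 (GRCm38). A reference table named 34267 of 34745 identifiers.

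Library sizes were scaled with TMM (edgeR 4.0.16, R 4.3.3) over all genes. Log2 ratios used a prior count of 0.5, and intervals are exact conditional binomial (Clopper-Pearson) at 95%. They cover counting error only, as does the limit of 3 counts for a count of 0, and neither PCR duplication nor variation among animals enters them. A ratio was given at a summed count of at least 20 and called at 2-fold where the interval excludes no change. With 1 library per group no p-value was computed. The procedure was tested on simulated counts. Members with at least 20 counts are named. Some genes, and sums that hold them, are not reported here; counts over all members include them. From each related list the 3 largest absolute log2 ratios are named, taken where the higher of the libraries reached 100 counts; others are said to be singled out. Python 3.11.15 (numpy 2.4.6, scipy 1.17.1, pandas 2.3.3, matplotlib 3.10.9) was used. Alternatives were DESeq2 1.42.0 size factors, total counts, other count minimums, another prior count and the FPKM scale.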

Additional observations from a re-analysis of the deposited data

How the results depend on the processing

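All 46 single log2 ratios kept their sign under 3 other scalings of the libraries (DESeq2 size factors, total counts, total counts outside the mitochondrial genome), and the same 5 genes were past 2-fold; the median over all tested genes shifted by at most 0.040. Total-count scaling moved Kcnj11 to an interval that includes 0 and Kcng4 to one above 0, and DESeq2 size factors moved Scn4a and Kcnma1 to intervals below 0. With no count minimum beyond 1 count, 3 members were at least 2-fold higher (Kcnip3 and Kcnj15 joined Scn3b) and 5 lower (Kcnk13 joined). With a minimum of 100 counts, 0 were higher and 2 lower (Kcnf1 and Kcnn3). Of all genes with at least 100 and below 1000 counts, 1.47% were past the same rule in either direction. At 1000 counts or more the share was 0.839%. On the FPKM scale 0 were higher with either pseudocount, and 2 were lower with a pseudocount of 0.1 FPKM (Kcnf1 and Kcnu1) and 1 with a pseudocount of 1 FPKM (Kcnf1); a pseudocount shrinks the ratio of genes with a low FPKM. Over all 12662 genes tested, 127 were higher and 128 lower with a pseudocount of 0.1, and 32 and 25 with a pseudocount of 1. A prior count of 5 took Kcna2 to −0.91. Leaving out members that share exon bases with another gene, chosen after seeing the data, left the same 5 genes past 2-fold among 31. The median log2 ratio of the members ran from 0.036 to 0.13 over all alternatives. No paired analysis was possible because each genotype has 1 library. Depth limits the 37 members under 20 counts: 3 of them (Kcnip3, Kcnj15 and Kcnk13) are past 2-fold with intervals that exclude 0, on at most 13 counts each. Over all 4624 genes with at least 1 and under 20 counts, 4.67% were past the same rule.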
